A study of Mus musculus with 13 samples.

Results

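The maternal histone supply was followed through 8 named genes in the ribosome footprints and the ac4C pulldown of mouse oocytes. They were the linker histone gene H1foo, the nucleoplasmin family chaperone genes Npm2 and Npm3, the histone mRNA binding protein gene Slbp, the H3-H4 chaperone gene Nasp, the H3.3 genes H3f3a and H3f3b, and the H2A.Z gene H2afz. All 8 were found by Ensembl identifier among the 22442 genes of the Ribo-seq tables and the 21898 genes of the acRIP-seq tables. The study asked what loss of Nat10, the enzyme that places N4-acetylcytidine (ac4C) on RNA, does to translation in oocytes at the germinal vesicle (GV) stage, arrested in meiotic prophase, and at metaphase II (MII), the mature egg. Ribo-seq, which reads the RNA fragments that ribosomes shield from RNase I, was done on 3 WT GV, 3 Nat10-ZcKO GV, 2 WT MII and 3 Nat10-ZcKO MII libraries of about 100 pooled oocytes each, treated with cycloheximide before lysis. All mice were of C57BL/6J background, and the study's methods take GV oocytes from 21-day-old females primed with PMSG and describe both hCG superovulation and culture for MII oocytes, without saying which gave these libraries. Nat10-ZcKO females were Nat10 lox/- with Zp3-Cre, a driver active in oocytes from the primary follicle on, so deletion is directed to the growing oocyte and not to the cells around it. The deposited design text also names tamoxifen, an agent that the study's methods give for its fibroblast lines and not for this driver. acRIP-seq, an antibody pulldown of fragmented mRNA, had 1 anti-ac4C and 1 anti-IgG library, each of about 2000 WT GV oocytes.

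A growing oocyte stops replicating its DNA long before it matures, yet it must store histones, and the chaperones that carry them, for the first divisions of the embryo. Most histone mRNAs of dividing cells have no poly(A) tail: they end in a conserved stem-loop that SLBP binds to allow processing, export and translation. Variant histones such as H3.3 and H2A.Z, the oocyte linker histone H1foo and the chaperones come instead from ordinary polyadenylated mRNAs, and in maturing oocytes many stored mRNAs of this kind are switched on by the cytoplasmic polyadenylation element (CPE) near the 3′ end, while others lose their tails.

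The sequences below show that difference at the 3′ end, and all are from GRCm38. The histone stem-loop was searched in 1 annotated transcript a gene, as the stretch in capitals below with 1 base of each arm allowed to vary. Other forms of the loop, or ends missing from the annotation, would not be found. The stem-loop was found in the 3′ UTR of none of the 8 genes, of 33 of 52 replication-dependent histone genes with an annotated 3′ UTR (63.5%), and of 1 of the 20601 other genes. It is shown in capitals, with 5 bases on each side, for the replication-dependent histone genes with the highest mean footprint level in WT GV, Hist1h4c at chr13:23698084-23698109 (minus strand) and Hist4h4 at chr6:136803993-136804018 (minus strand).
Hist1h4c: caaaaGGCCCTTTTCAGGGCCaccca
Hist4h4: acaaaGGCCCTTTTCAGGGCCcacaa
A poly(A) signal (AATAAA or ATTAAA, sense strand) lay in the last 100 bases of all 8 annotated 3′ UTRs, against 78.7% of the 19282 genes with a 3′ UTR of that length. A CPE (TTTTAT or TTTTAAT, sense strand) lay there in 1 of the 8, H1foo, against 17.9% of the same genes. The H1foo stretches with the CPE at chr6:115950157-115950186 and the poly(A) signal at chr6:115950199-115950228 (plus strand, motifs in capitals) read as follows.
H1foo CPE: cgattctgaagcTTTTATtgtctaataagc
H1foo poly(A) signal: taatcataatttatcAATAAAgactttgta
These matches describe the annotated sequence and say nothing of which sites are used in the oocyte.

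H3f3a and H3f3b encode the same protein. Their coding sequences, 408 bases without the stop codon, differed at 95 bases and at 0 of 136 residues, and the longest stretch they shared was 23 bases. The densest stretch of differences, coding bases 130 to 159, is shown with the 10 differing bases in capitals.
H3f3a: ccTggTacTgtggcCctCCgTgaAatcAgA
H3f3b: ccAggGacCgtggcTctGAgAgaGatcCgT

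The Ribo-seq libraries held 4815 to 279464 counts on coding sequences, and 3 of the 11 stood apart. WT MII replicate 2 had the 4815 counts and showed 1 of 12 oocyte markers. In Nat10-ZcKO GV replicates 1 and 2 the oocyte marker list (Zp3, Gdf9 and others) took 0.0213% and 1.54% of counts, against 5.65% to 11.1% in the other 4 GV libraries, and Zp3 had 1 count in replicate 1. The adipocyte list took 1.32% and 0.284% there with 15 and 11 of its 16 genes seen, against 0.0180% to 0.0283% in the other GV libraries, although the defining gene Adipoq had 1 count in each and 0 elsewhere. The smooth muscle list was also higher there, at 0.510% and 0.133% against at most 0.103% elsewhere. Its defining gene Myh11 was not set apart, with 36 of 42360 and 35 of 51709 counts there. The WT GV libraries had 96 of 145464, 249 of 279464 and 58 of 96142, and Nat10-ZcKO GV replicate 3 had 189 of 277124. The granulosa list was at 1.04% and 0.304% against at most 0.503%. Whether such cells were present, and their part in the results below, was not tested. In MII libraries other than WT MII replicate 2 the oocyte list took 1.12% to 1.35%. Results are therefore given with all libraries and with the 8 that remain without these 3. In libraries of pooled cells, fewer cells of a type and less RNA per cell cannot be told apart. Nat10 itself had 1 to 11 counts per library in both genotypes (8, 11 and 3 in WT GV, 4, 1 and 5 in Nat10-ZcKO GV), too few to check the labels.

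Among the 8 genes the footprint levels spanned from among the most abundant in the oocyte to none. Per length of coding sequence, in TPM (counts divided by coding length and scaled to a sum of 1000000 per library), the order in WT GV was H1foo at 3456 ± 327, Npm2 at 1009 ± 369, Slbp at 929 ± 143, Nasp at 454 ± 72.3, H3f3b at 241 ± 118 and Npm3 at 31.2 ± 17.0 (SD, n = 3), with no count on H3f3a or H2afz. Npm2 and Slbp, neighbours in that order, did not differ beyond their spread, and Slbp was above Npm2 in WT GV replicate 1. In Nat10-ZcKO MII the order became H1foo at 18110 ± 7456, Slbp at 9020 ± 2086, H3f3b at 1088 ± 248, Npm2 at 424 ± 53.6 and Nasp at 192 ± 44.2 TPM (SD, n = 3). WT MII replicate 1 gave the same order of these 5 genes. In Nat10-ZcKO GV replicate 3, the library of that group rich in oocyte markers, the TPM were 2051 for H1foo, 1211 for Npm2, 558 for Nasp, 507 for Slbp and 121 for H3f3b, so Nasp and Slbp traded places against WT GV. H1foo, by TPM rank, was the 20th or 21st gene in the WT GV libraries and the 4th to 8th in the 4 deeper MII libraries, and Slbp moved from rank 88 to 134 in WT GV to rank 11 to 17 in those MII libraries.

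H1foo (chr6:115944938-115950236) encodes the linker histone of the oocyte, which replaces somatic H1 in growing oocytes and persists into the early embryo. In CPM, counts scaled to a library total of 1000000, it was at 2303, 2641 and 2715 in WT GV and at 23.6, 561 and 1577 in Nat10-ZcKO GV. The WT MII libraries had 11028 and 623 CPM, and those of Nat10-ZcKO MII had 16455, 6720 and 16826 CPM. Every MII library except WT MII replicate 2, where 623 CPM stands for 3 counts, lay above every GV library, and the 3 lowest levels were those of the 3 libraries that stand apart.

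Slbp (chr5:33634952-33652574) encodes the protein that binds the stem-loop of replication-dependent histone mRNAs. Its level was 674, 533 and 718 CPM in WT GV and 70.8, 464 and 364 CPM in Nat10-ZcKO GV. Among MII libraries, those of WT had 3960 and 208 CPM, and Nat10-ZcKO had 6091, 4662 and 7802 CPM. Again the 4 deeper MII libraries lay above all 6 GV libraries, and the single count of WT MII replicate 2 did not.

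**Figure D1:**
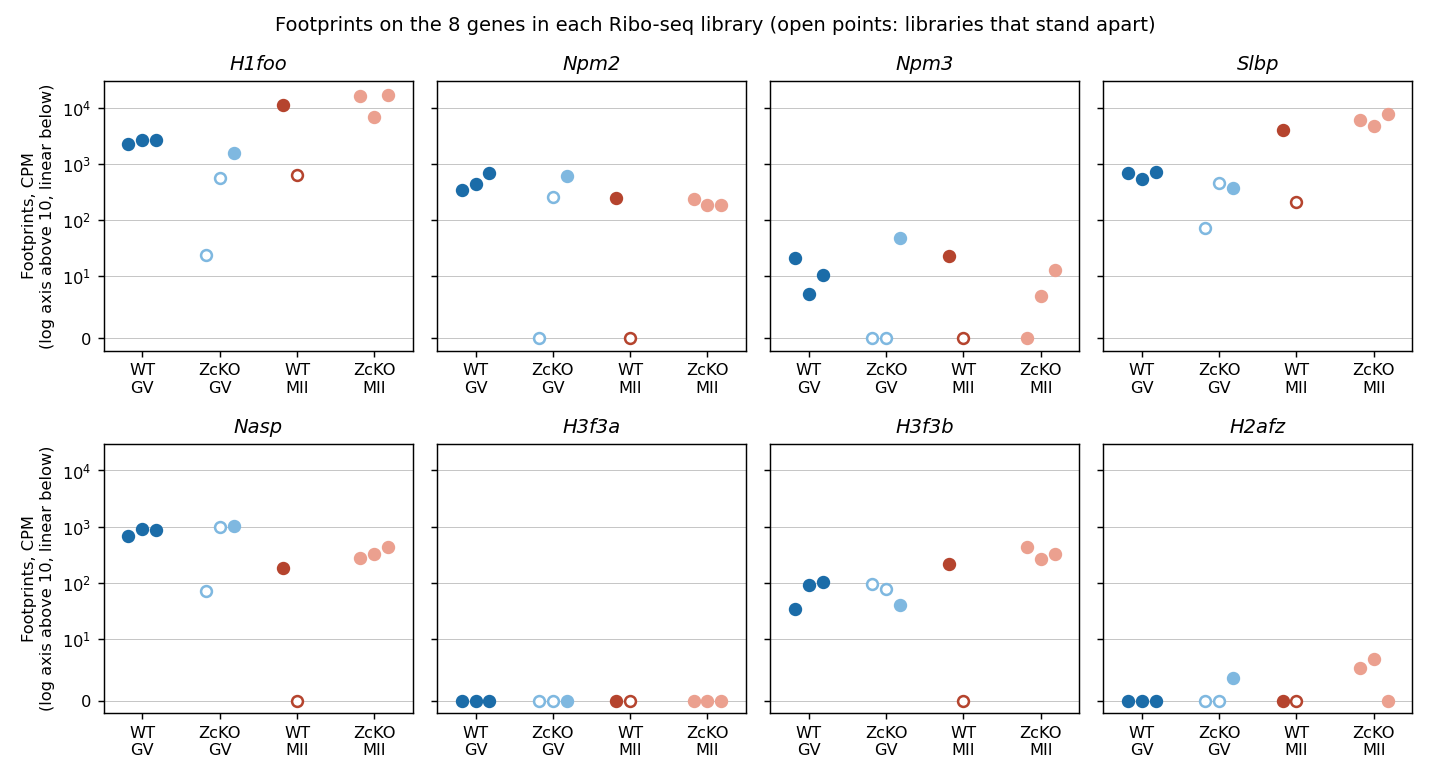
Footprints in CPM (log axis above 10, linear below) on each of the 8 genes in the 11 Ribo-seq libraries, by group, with open points for WT MII replicate 2 and Nat10-ZcKO GV replicates 1 and 2. H1foo, Slbp and H3f3b sit higher in the filled MII points than in the filled GV points, Nasp and Npm2 sit lower, and H3f3a lies at 0 throughout.

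The 2 genes of the variant H3.3, the histone that chaperones place into chromatin outside replication, could not be compared on equal terms. H3f3b (chr11:116021912-116027962) had 34.4, 89.5 and 104.0 CPM in WT GV and 94.4, 77.4 and 39.7 CPM in Nat10-ZcKO GV. The deeper MII libraries lay above all of these, WT MII replicate 1 at 215 CPM and Nat10-ZcKO MII at 431, 266 and 326 CPM. WT MII replicate 2 had no H3f3b count, and its 3-count limit is 623 CPM. H3f3a (chr1:180800832-180813943) had 0 counts in all 11 libraries. In the deepest, WT GV replicate 2, that allows up to 10.7 CPM by counting error, where H3f3b had 25 counts (89.5 CPM). The limit covers only footprints that could be assigned to H3f3a. Of its coding 28-base words 94.1% also occur elsewhere in the genome, so its true level may be higher and cannot be ranked against H3f3b.

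H2afz (chr3:137864487-137866922), the gene of H2A.Z, had 3 counts in all, 1 each in Nat10-ZcKO GV replicate 3 and Nat10-ZcKO MII replicates 1 and 2. Npm3 (chr19:45747734-45749591), a relative of Npm2 that lacks its oocyte restriction, had 3, 2 and 1 counts in WT GV and 0, 0 and 13 in Nat10-ZcKO GV. At MII it had 3 and 0 counts in WT libraries and 0, 1 and 2 in those of Nat10-ZcKO. Both were at or near the limit that a count of 0 allows in most libraries, so no change of either gene was detectable at this depth.

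Much of the coding sequence of these low genes is not unique in the genome. Of the distinct 28-base words in the coding sequence, 94.1% of those of H3f3a, 87.9% of H2afz, 75.7% of Npm3 and 73.8% of H3f3b also occur elsewhere in the GRCm38 chromosomes, on either strand. The share was 18.6% for Slbp, 7.08% for Nasp, 1.68% for Npm2 and 0% for H1foo. In WT GV the 4 genes with the largest shares were the 4 with the lowest footprint levels. In the deeper MII libraries H3f3b stood above Npm2 and Nasp per length, and H3f3b was still counted in 10 of the 11 libraries. Since H3f3a and H3f3b share no stretch of 28 bases, those words match other loci and not each other. Whether footprints that fit several loci were dropped is not given in the sources used here, and the part of this in the low counts was not tested.

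**Figure D2:**
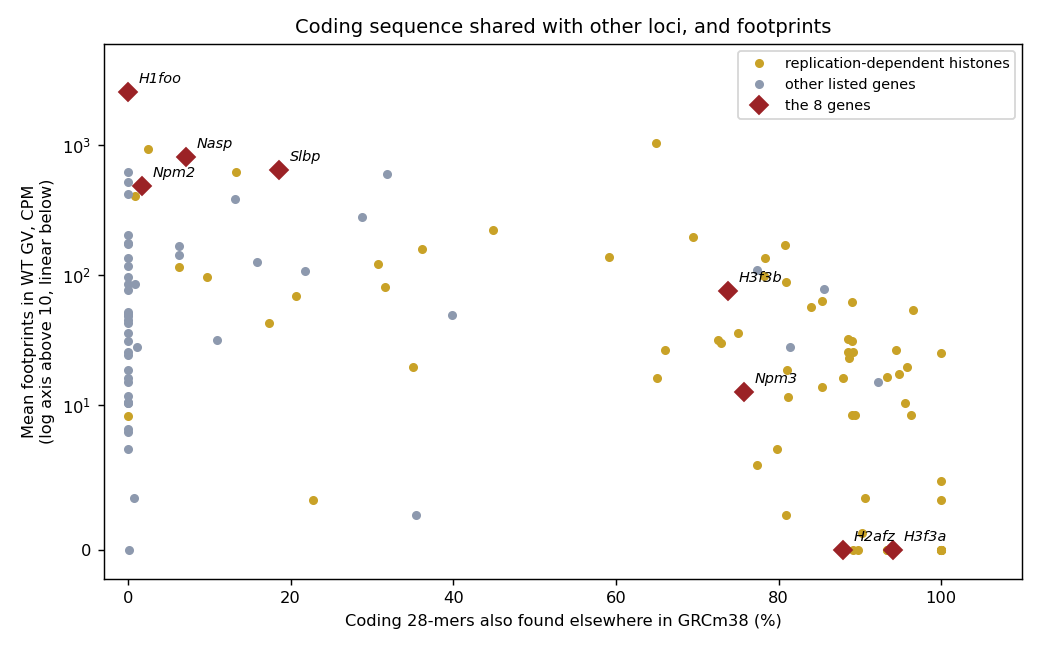
Mean footprints in WT GV (CPM, log axis above 10, linear below, n = 3) against the percentage of coding 28-base words that also occur elsewhere in GRCm38, for the 8 genes (diamonds) and the 115 genes of the histone pathway list (circles). H1foo, Npm2, Nasp and Slbp lie at the left with high levels, and H3f3b, Npm3, H2afz and H3f3a lie between 73.8% and 94.1%.

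Nasp (chr4:116601052-116627941), whose product holds the soluble reserve of H3 and H4, went the other way. It was at 674, 909 and 863 CPM in WT GV and at 70.8, 986 and 1043 CPM in Nat10-ZcKO GV. At MII the WT libraries had 185 and 0 CPM, and the Nat10-ZcKO libraries 271, 320 and 432 CPM. All MII libraries lay below the GV libraries with the exception of Nat10-ZcKO GV replicate 1, where the level stands for 3 counts.

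Npm2 (chr14:70647302-70659244) encodes nucleoplasmin, the chaperone of the egg that removes protamines from the sperm head and shapes the oocyte nucleolus. It was at 344, 433 and 676 CPM in WT GV and at 0, 251 and 606 CPM in Nat10-ZcKO GV. The MII levels were 245 and 0 CPM in WT and 234, 184 and 188 CPM in Nat10-ZcKO. WT GV lay above the deeper MII libraries, while Nat10-ZcKO GV overlapped them. Its replicate 2 stood close to WT MII replicate 1 and its replicate 1 had no count. In WT MII replicate 2 a count of 0 allows up to 623 CPM, above WT GV replicates 1 and 2, so that library cannot be placed.

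The stage comparisons asked how footprints differ between GV and MII within a genotype, with edgeR's quasi-likelihood test and Benjamini-Hochberg adjustment over all genes that passed the filter on low counts. In each comparison of all its libraries 5 of the 8 genes passed that filter, H1foo, Slbp, H3f3b, Nasp and Npm2, and H3f3a, H2afz and Npm3 did not. In WT, with all 5 libraries, 1 of the 5 passed an adjusted p of 0.05, against 21.5% of the 2045 genes tested: H3f3b was higher in MII by 1.70 ± 0.64 on the log2 scale (SE, edgeR adjusted p = 0.0406). That call was lost without any 1 of the WT GV libraries, with edgeR adjusted p of 0.171, 0.774 and 0.127. Over all genes 204 were higher and 235 lower in MII, a split that became 277 and 648 by library size alone and 151 and 117 with DESeq2 size factors. The other 4 had wide errors, with log2 changes of 2.17 ± 1.56 for Slbp, 1.64 ± 1.79 for H1foo, -2.18 ± 1.38 for Nasp and -0.97 ± 1.04 for Npm2.

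Without WT MII replicate 2 the errors of the WT comparison fell and 4 of the 5 genes passed. Then 3 were higher in MII, against 20.9% of the 3264 genes tested: Slbp by 2.71 ± 0.24, H1foo by 2.20 ± 0.23 and H3f3b by 1.58 ± 0.47 on the log2 scale (SE, edgeR adjusted p of 2.56e-07, 1.72e-06 and 0.013). Nasp was lower, with a log2 change of -2.05 ± 0.34 (SE, edgeR adjusted p = 0.000151), against 24% of genes, and Npm2 was at -0.86 ± 0.37 (SE, edgeR adjusted p = 0.0659). This fit holds 1 MII library, which is assumed to vary as the WT GV libraries do. Without WT MII replicate 1 instead, all 5 log2 changes were negative, between -9.84 and -4.85, beside a median of -6.85 over all genes.

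In Nat10-ZcKO, with all 6 libraries, 2 of the 5 genes passed, against 16.2% of the 2225 genes tested. Slbp was higher in MII by 4.08 ± 1.16 and H3f3b by 2.23 ± 0.67 on the log2 scale (SE, edgeR adjusted p of 0.0337 and 0.0402). H1foo was at 3.72 ± 1.49, Nasp at -1.37 ± 0.93 and Npm2 at -1.04 ± 0.996 (SE, edgeR adjusted p of 0.0939, 0.286 and 0.45). Nat10-ZcKO GV replicates 1 and 2 had low oocyte marker shares, and the part of this in these values was not tested. Without GV replicate 2 none of the 5 passed in edgeR, where 148 of the 2780 genes tested were higher in MII and 96 lower. None of the 5 passed when a single MII library of that genotype was left out, and no other gene did. The same comparison had 4 of the 5 past the threshold without GV replicate 1, where 330 of 2693 genes were higher and 327 lower. It had 3 without GV replicate 3, where 480 of 2921 genes were higher and 298 lower. In the latter, H1foo was at 5.77 ± 1.56 (SE). Over all genes 226 were higher and 134 lower in MII, and 299 and 108 by library size alone.

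A fit of stage and genotype was also made on the 8 libraries. It held all WT GV and all Nat10-ZcKO MII libraries, but only replicate 3 of Nat10-ZcKO GV and only replicate 1 of WT MII. Stage and genotype are thus largely aligned in it, and it assumes the same stage change in both genotypes. All 5 genes passed the adjusted p of 0.05, 3 of them higher in MII against 33.9% of the 2185 genes tested, and 2 lower against 36.3%. So many genes moved between the stages that a call alone sets these genes little apart. Slbp was higher by 3.18 ± 0.35, H1foo by 2.42 ± 0.38 and H3f3b by 2.06 ± 0.41, while Nasp changed by -2.03 ± 0.29 and Npm2 by -1.50 ± 0.29 on the log2 scale (SE, edgeR adjusted p of 1.59e-07, 1.42e-05, 0.000193, 3.32e-06 and 0.000153). In size, 4.71% of all genes tested rose at least as far as Slbp, 11.9% as far as H1foo and 16.3% as far as H3f3b, and 19.4% fell at least as far as Nasp and 27.7% as far as Npm2. The oocyte marker list took 5.65% or more of counts in the GV and 1.35% or less in the MII libraries of this fit. Without Nat10-ZcKO GV replicate 3, Npm2 was at -1.01 ± 0.44 (SE, edgeR adjusted p = 0.0654) and the other 4 genes still passed. With all 11 libraries in the same design 2 of the 5 passed, Slbp and H3f3b, both higher in MII against 15.2% of the 2000 genes tested, and none was lower against 24.5%.

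**Figure D3:**
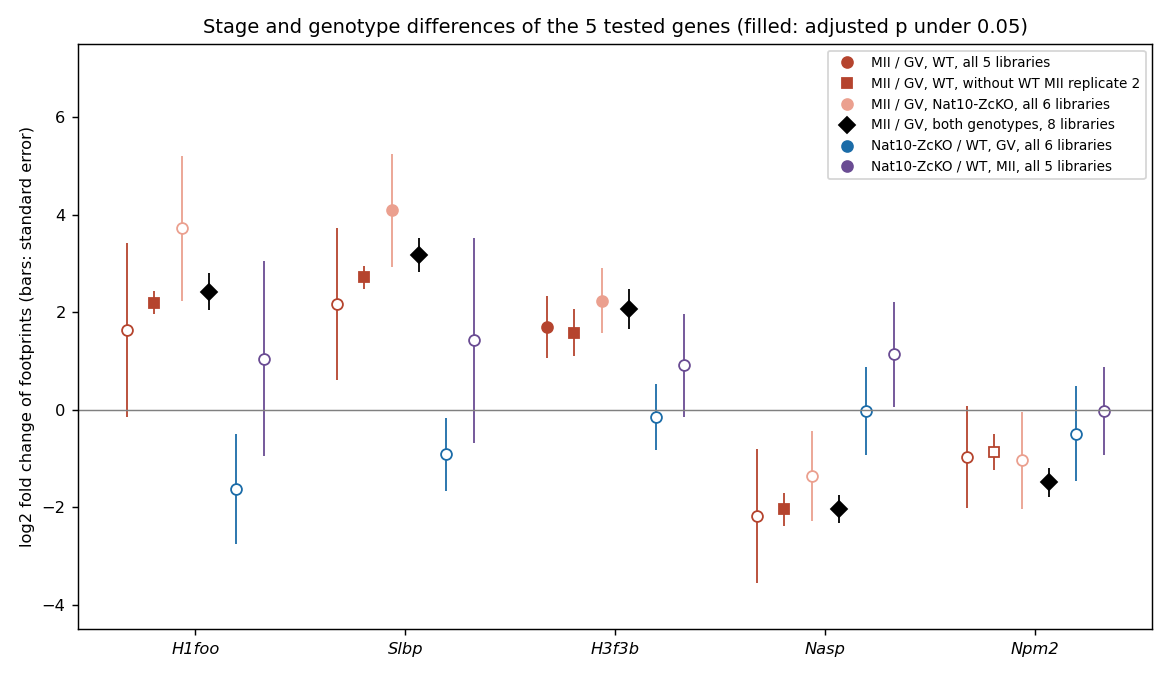
Log2 fold changes of footprints with their standard errors for the 5 genes that passed the filter, in the stage comparisons (MII over GV) and the genotype comparisons (Nat10-ZcKO over WT), with filled symbols for an adjusted p under 0.05. H1foo, Slbp and H3f3b lie above 0 and Nasp and Npm2 below 0 in every stage comparison drawn, and no genotype comparison has a filled symbol.

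The opposite movement of pairs of these genes can be read within a library, as a ratio of raw counts that no scaling between libraries touches. Each pair sets a gene higher in MII over a gene lower in MII in the same libraries. The ratios therefore restate the changes above without scaling and are no separate support for them. Slbp over Nasp was 1.0, 0.587 and 0.831 in WT GV and 1.0, 0.471 and 0.350 in Nat10-ZcKO GV. WT MII replicate 1 had a ratio of 21.4, and the Nat10-ZcKO MII libraries had 22.5, 14.6 and 18.1. In WT MII replicate 2 Slbp had 1 count and Nasp 0, so there is no ratio. Slbp thus had at most as many counts as Nasp in every GV library and more than 10 times as many in every MII library with a ratio.

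H1foo over Npm2 moved in the same way. The ratio was 6.70, 6.10 and 4.01 in WT GV and 2.23 and 2.60 in Nat10-ZcKO GV replicates 2 and 3. For MII, WT replicate 1 had 45.1 and the Nat10-ZcKO libraries 70.3, 36.5 and 89.6. The exact 95% intervals, which cover counting error only, ended at 9.21 for the highest GV library and began at 24.9 for the lowest MII library. Nat10-ZcKO GV replicate 3, deep and rich in oocyte markers, had an interval of 2.17 to 3.13, which overlapped that of WT GV replicate 3 (3.05 to 5.35) and lay below those of WT GV replicates 1 and 2.

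**Figure D4:**
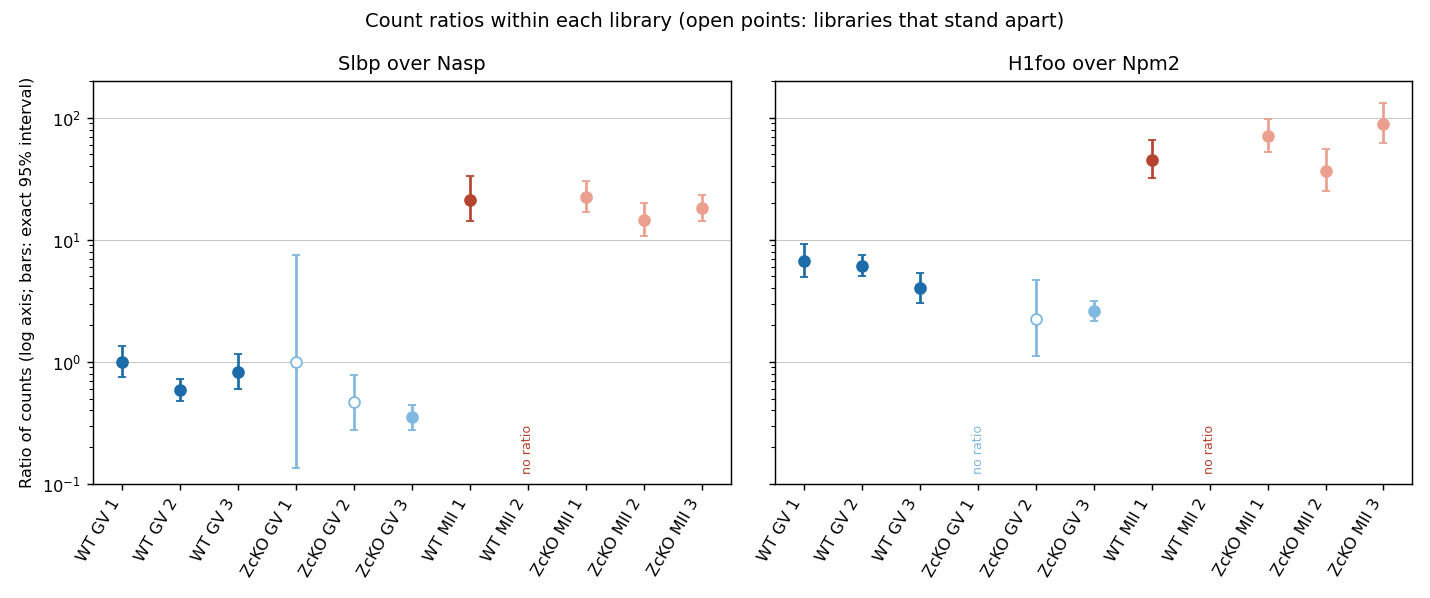
Ratios of footprint counts within each library (log axis, bars for exact 95% intervals, open points for the 3 libraries that stand apart), Slbp over Nasp on the left and H1foo over Npm2 on the right. The MII libraries with a ratio lie from 14.6 to 22.5 on the left and from 36.5 to 89.6 on the right, above all GV libraries.

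The genotype comparisons asked whether the loss of Nat10 changed footprints at a stage. In GV oocytes none of the 5 genes passed, against 0% of the 1765 genes tested by edgeR (7 passed in DESeq2, and before adjustment edgeR gave 60 higher and 25 lower with p under 0.05), and none of the 5 had an unadjusted p under 0.05 or passed in DESeq2. The log2 changes of Nat10-ZcKO over WT were -1.63 ± 1.13 for H1foo, -0.92 ± 0.75 for Slbp, -0.49 ± 0.98 for Npm2, -0.15 ± 0.68 for H3f3b and -0.03 ± 0.90 for Nasp (SE). Each lay within 2 SE of 0. Without Nat10-ZcKO GV replicate 3, which leaves the Nat10-ZcKO GV libraries with few oocyte marker counts, H1foo was at -3.14 ± 1.14 (SE, edgeR unadjusted p = 0.0221, adjusted p = 0.0789), and without replicate 1 it was at -1.08 ± 0.65. In CPM the lowest H1foo and Slbp levels were in the library with the fewest oocyte marker counts of the group. With the 8 libraries, where Nat10-ZcKO GV is replicate 3 alone, the same contrast was -0.42 ± 0.49 for H1foo, -0.53 ± 0.45 for Slbp, 0.64 ± 0.39 for Npm2, -0.65 ± 0.62 for H3f3b and 0.63 ± 0.39 for Nasp.

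In MII oocytes none of the 5 genes passed either, against 0.191% of the 2097 genes tested, and again none did in DESeq2 or at an unadjusted p under 0.05. The log2 changes were 1.42 ± 2.10 for Slbp, 1.14 ± 1.07 for Nasp, 1.05 ± 2.01 for H1foo, 0.91 ± 1.05 for H3f3b and -0.03 ± 0.90 for Npm2 (SE), beside a median of 0.37 over all genes. Without WT MII replicate 2 they were 0.59 ± 0.58, 0.83 ± 0.55, 0.21 ± 0.63, 0.58 ± 0.53 and -0.36 ± 0.54 in the same order, and none passed. Without WT MII replicate 1, so against the 4815 counts of replicate 2 alone, the 5 log2 changes were 7.12 to 8.54, beside a median of 6.52 over all genes.

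Whether the stage change differed between the genotypes was tested as an interaction over all 11 libraries. None of the 5 genes passed, against 0.906% of the 3863 genes tested, and none had an unadjusted p under 0.05. The interaction was 3.02 ± 2.61 for H1foo, 2.84 ± 2.44 for Slbp, 2.04 ± 1.99 for Nasp, 1.94 ± 1.61 for H3f3b and 1.24 ± 1.77 for Npm2 on the log2 scale (SE), beside a median of 0.96. With the 8 libraries it was 1.09 ± 0.62 for Slbp and -1.02 ± 0.60 for Npm2 (SE, edgeR adjusted p = 0.8 for both).

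The partners of the 8 genes were followed in a list of 115 genes in 6 groups, of which 42 passed the filter in the stage fit on the 8 libraries. There 16 were higher and 10 lower in MII, beside the 33.9% higher and 36.3% lower of all genes tested, with a median log2 change of 0.26 beside -0.07. With all 11 libraries in that design the balance was 5 higher and 6 lower of 40, beside 15.2% and 24.5% of all genes. With all libraries, 5 of 39 were higher and 2 lower in WT, beside 21.5% of all genes called in either direction. In Nat10-ZcKO 3 of 45 were higher and 2 lower, beside 16.2% of all genes in either direction. None of the listed genes passed in a genotype comparison, of 35 tested in GV and 40 in MII by edgeR (1 and 0 at an unadjusted p under 0.05), and none in DESeq2. Of all genes tested by edgeR, 0% passed in GV and 0.191% in MII.

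The counts that follow, by group, are from the 8 libraries and rest on 2 to 18 genes each, so they are read against the same 33.9% and 36.3% and set no group apart. Among chaperones of H3 and H4, the partners of Nasp, 4 of 8 tested rose and 3 fell. Rbbp7, a histone-binding subunit shared by several chromatin complexes, rose from 184 to 302 CPM in the 4 GV libraries to 1913 to 3102 CPM in the 4 MII libraries, a log2 change of 3.03 ± 0.28. Dnajc9, a heat shock co-chaperone for H3 and H4 that works beside Nasp, fell by a log2 change of -4.03 ± 0.47. Chaf1a, the large subunit of the replication chaperone CAF-1, fell as well, with a log2 change of -1.94 ± 0.40. The H3-H4 carrier Asf1b rose by 1.36 ± 0.38, so the group did not move as one.

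Both tested genes of H3.3 deposition rose, Atrx by 2.35 ± 0.31 and Cabin1 by 0.89 ± 0.35 on the log2 scale, and 4 of the 6 did not pass the filter. Of chaperones and remodelers for H2A and H2B, 4 of 9 tested rose and 3 fell. Npm1, the somatic relative of Npm2, rose by 2.08 ± 0.45, opposite to Npm2, although 77.3% of its coding 28-base words occur elsewhere in the genome. Anp32e and Vps72, both chaperones of H2A.Z, rose by 1.98 ± 0.34 and 1.62 ± 0.35. Supt16, a subunit of the FACT complex, and Nap1l4 fell, with log2 changes of -1.82 ± 0.29 and -2.21 ± 0.28. For histone mRNA 3′ processing and transcription, which involves Slbp, 2 of 12 passed the filter and 1, Casp8ap2, rose by 2.63 ± 0.57. Of other replication-independent histones, Cenpa, the histone of the centromere, and H2afx rose by 2.45 ± 0.56 and 0.82 ± 0.24, and H1fx fell with a log2 change of -1.76 ± 0.56. All of these had an adjusted p under 0.05 in edgeR. Casp8ap2 and Cenpa had 10.8 to 35.8 and 6.88 to 18.0 CPM in the 4 GV libraries, so they met the filter through MII. H1fx, at 6.26 to 54.5 CPM in the 4 MII libraries, met the filter through GV. For these genes the filter itself favours the direction found.

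The replication-dependent histones, the class of genes whose mRNAs SLBP binds, did not follow Slbp as a group. They were taken by gene name, and the stem-loop, by the fixed search above that can miss other forms, was found in 33 of the 52 with an annotated 3′ UTR. Of 67 genes, 18 passed the filter, 3 rose and 3 fell, and their median log2 change was -0.12. Together they took 0.500% to 0.591% of footprints in WT GV, 0.798% in Nat10-ZcKO GV replicate 3, 0.649% in WT MII replicate 1 and 0.716% to 0.922% in Nat10-ZcKO MII, so the share moved far less than that of Slbp. Hist1h1a, a linker histone gene, rose by 1.55 ± 0.31 and Hist1h2ba, an H2B gene known from germ cells, by 1.05 ± 0.32, while Hist1h4f fell with a log2 change of -2.28 ± 0.42. Hist1h4c and Hist4h4, whose stem-loops are shown above, did not pass in this fit. Many of these genes share nearly all of their sequence with copies, so single members are uncertain.

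In the acRIP-seq libraries, which ask which mRNAs carry ac4C, the total was 116232 counts for anti-IgG and 970997 for anti-ac4C, with 1 library per arm and no test. By the study's rule of a ratio above 2, with at least 1 CPM in anti-ac4C, 3 of the 8 genes counted as ac4C+, against 54.7% of the 11579 genes at that level. Slbp had 31 anti-IgG and 671 anti-ac4C counts, a CPM ratio of 2.59 with an exact 95% interval of 1.81 to 3.84. H3f3a had 1 and 18 counts, a ratio of 2.15 with an interval of 0.340 to 89.8. Npm3 had 0 and 10 counts and passed because anti-IgG was at 0, with a lower bound of 0.268. None of the 3 had a lower bound above 2.

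The 2 genes with the most fragments lay below a ratio of 1. H1foo had 525 and 2641 counts, a ratio of 0.602 with an interval of 0.548 to 0.663, and Npm2 had 426 and 2050 counts, a ratio of 0.576 with an interval of 0.519 to 0.641. Both intervals ended below 0.723, the median of the 1510 genes with 20 or more anti-IgG counts. Choosing genes by their anti-IgG counts favours low ratios, so that median is a low mark. Nasp stood at 1.29 (1.03 to 1.64) with 81 and 872 counts, H3f3b at 0.826 (0.515 to 1.39) with 20 and 138 counts, and H2afz at 0.150 (0.0322 to 0.754) with 4 and 5 counts. Slbp, with an interval above those of H1foo and Npm2, was the member with the highest ratio among those with 20 or more anti-IgG counts. Its interval also lay above that median, which by the choice of genes sets it little apart.

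**Figure D5:**
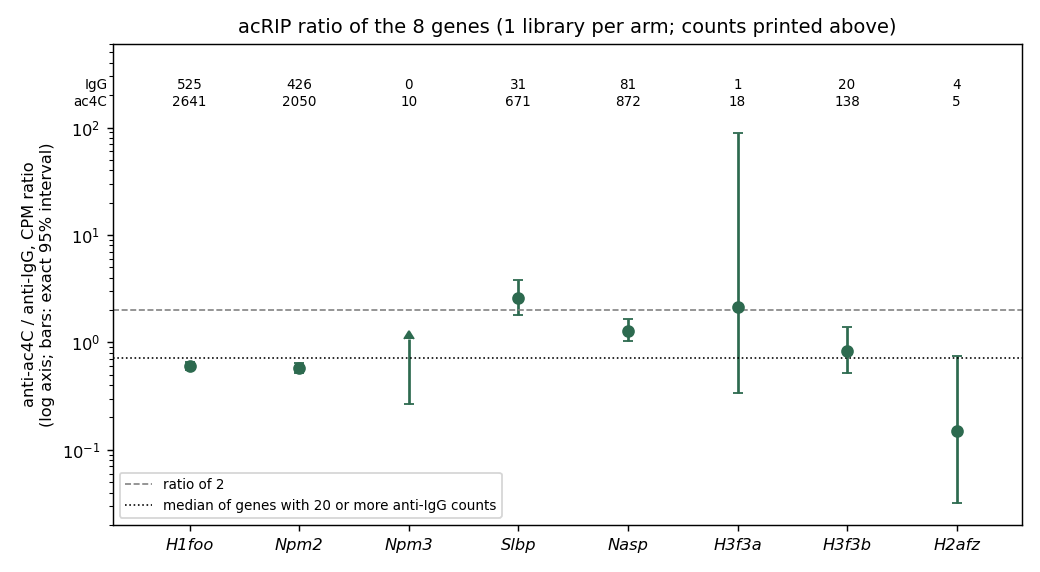
Anti-ac4C over anti-IgG ratio of CPM for the 8 genes (log axis, bars for exact 95% intervals, 1 library per arm, raw counts printed above), with the ratio of 2 dashed and the median of 0.723 dotted. Slbp lies at 2.59, H1foo and Npm2 lie at 0.602 and 0.576 with narrow intervals, and the arrow marks Npm3, whose anti-IgG count is 0.

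In the pulldown, H3f3a and H2afz also had few counts, with 18 and 5 in anti-ac4C against 138 for H3f3b. Few mRNA fragments were thus assigned to the 2 genes that are nearly absent from the footprints. Sequence shared with other loci bears on the counts of both assays, so the pulldown is no independent check. The part of this in the low counts was not tested. Of the 115 listed genes, 58 reached 1 CPM in anti-ac4C and 27 of these counted as ac4C+, beside the 54.7% of all genes. Of the 27, 19 had no anti-IgG count and so no ratio, and 8 had a ratio above 2, while 4838 of the 6337 ac4C+ genes overall had no anti-IgG count. Mcm2, a helicase subunit that also carries H3 and H4, had a ratio of 5.49 (2.49 to 15.1) and Chaf1a one of 0.562 (0.496 to 0.638). The 67 replication-dependent histones had 77 anti-ac4C counts in all, from mRNA taken with capture beads, and the part of that step in this low count was not tested.

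The genes whose footprints varied most like these across libraries were taken from all genes with a mean of at least 100 CPM, by Pearson's r of log2(CPM + 10). The correlations are descriptions over libraries that share depth and oocyte content. Over the 11 libraries the closest to H1foo were Bpgm (r = 0.979), Spin1 (0.975) and Rhpn2 (0.969), and the closest to Slbp were Ccdc14 (0.984), Fam90a1a (0.979) and Tcl1b1 (0.975). For these 6 genes r over the 8 libraries was 0.940 to 0.992. Tpx2, the spindle assembly factor, was closest to H3f3b (0.977), Ktn1 to Nasp (0.984) and Brca1, the DNA repair gene, to Npm2 (0.985). Over the 8 libraries r was 0.9605 for Tpx2, 0.886 for Ktn1 and 0.853 for Brca1. Other genes were closest to each of these members there, such as Nsf to Npm2 (0.974). Among the 8 genes themselves, H1foo and Slbp had r = 0.927 over 11 and 0.972 over 8 libraries. H1foo and Npm2 had r = 0.625 over 11 but -0.837 over 8, so the sign of that relation rests on the 3 libraries that stand apart.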

How the data were processed

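Ribo-seq was analysed in 11 libraries and acRIP-seq in 2. The authors deposited raw counts per gene as whole numbers, not normalized, 1 file per library. Per the labels, cutadapt, STAR and HTSeq were used with mm10 (GRCm38), with no version and no setting for multiply aligned reads. Entries with no gene entered neither library sizes nor tests (no feature 46.7% of anti-IgG and 17.1% of anti-ac4C, ambiguous 0.392% and 0.750%). No column of per-sample values was left unused.

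Members and lists were chosen with earlier results of these data known. Groups are those of the labels. Nothing says that replicates are separate animals, so p-values measure the spread between these samples, which may be technical. No pair of replicates of a group was alike within sampling noise (chi-square over degrees of freedom of 5.43 or more).

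CPM and TPM were computed from the counts, with TPM by the union of coding segments in GENCODE M21 (22399 of 22442 identifiers matched and 83 genes had no length). A count of 0 allows 10.7 to 623 CPM (3 counts) by library. Differences were tested with edgeR 4.0.16 in R 4.3.3 (filterByExpr, TMM, glmQLFit, glmQLFTest, prior count 0.125, Benjamini-Hochberg), with SE as the log2 change over the square root of F. DESeq2 1.42.0, other scalings and filters, one fit of all libraries, the 8 libraries, each library left out and the replicate number as a block were alternatives. The steps were tested on simulated data. acRIP ratios have exact Clopper-Pearson 95% intervals, which, like the floors, describe counting error alone because reads copied by PCR are not separate molecules.

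Sequences, 3′ UTRs and 28-base words were read from the RefSeq GRCm38 genome with GENCODE M21 models, 1 transcript a gene for UTRs. Named genes are the 8 members, Nat10, listed genes past an adjusted p of 0.05 or with one of the 3 highest WT GV levels of their group, not all of which are given, and the 3 most alike genes per member. Python 3.11.15, numpy 2.4.6, pandas 2.3.3 and scipy 1.17.1 were used.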

Additional observations from a re-analysis of the deposited data

How the results depend on the processing

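The genotype calls of the 8 genes stayed at 0 under every scaling, filter, DESeq2, all 11 libraries in one fit and the 8 libraries; leaving out 1 library gave 0 throughout in GV and 0 to 5 in MII, with all 5 only without WT MII replicate 1. The listed genes gave 0 to 3 and 0 to 32 there. In the WT stage comparison the 1 member called (and 7 listed genes) became 2 (14) by library size only, 0 (3) with DESeq2 size factors, 0 (0) with no filter, 0 (0) with at least 30 counts, 0 (0) with all 11 libraries in one fit, 0 (2) in DESeq2 and 4 (14) with the 8 libraries, and leaving out 1 library gave 0 to 5 (1 to 35). In the Nat10-ZcKO stage comparison the 2 members (5 listed genes) became 0 (1) with all 11 libraries in one fit and 5 (18) with the 8 libraries, the listed genes became 3 with no filter and 13 in DESeq2, and leaving out 1 library gave 0 to 4 (0 to 14). The cause of these moves was not tested. With the replicate number as a block, the replicate block fit called 0 members and 0 listed genes in WT and 0 and 1 in Nat10-ZcKO; same-numbered libraries correlated by -0.0931 to 0.156 in their deviations, so they share only a number. The stage fit over both genotypes called 2 members (11 listed genes) with 11 libraries and 5 (26) with 8, and in the latter 4 to 5 (14 to 28) when 1 library was left out, Npm2 being lost without Nat10-ZcKO GV replicate 3. These left-out libraries, library size only and a 30-count filter on the 8 libraries were added after the data were seen.

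Library size alone moved the median log2 change of all genes from -0.07 to 0.13 in the 8-library stage fit and from -0.44 to -0.77 in the WT stage comparison, and no member changed sign there. Signs turned for values that had not passed. Npm2 in GV was 0.64 with the 8 libraries and -1.93 to 0.0558 with 1 library left out, where H1foo, which kept its sign, was -3.14 to -1.08. Nasp in GV was 0.0434 with DESeq2 size factors, 0.0439 in DESeq2, 0.63 with the 8 libraries and -0.65 to 0.47 with 1 left out. Npm2 in MII was 0.59 with no filter, 0.27 with at least 30 counts, 0.62 with all 11 libraries, 0.84 with the replicate block, 0.0347 in DESeq2 and -0.36 to 7.75 with 1 left out. H1foo in the WT stage comparison was -0.0523 with the replicate block. With 1 library left out, the WT stage values were -5.30 to 2.20 for H1foo, -4.85 to 2.71 for Slbp and -6.42 to 1.83 for H3f3b, and the Nat10-ZcKO stage value of Npm2 was -1.55 to 0.90. The interaction for Npm2 was -1.02 with the 8 libraries.

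The 3 members counted as ac4C+ became 0 with a lower 95% bound above 2, 7 without scaling to depth and 1 (Slbp) with at least 50 counts. By CPM in place of TPM, Npm2 moved from place 2 to 4 and Nasp from 4 to 2 in WT GV and Nat10-ZcKO GV, and in Nat10-ZcKO MII Npm2 moved from 4 to 5 and Nasp from 5 to 3. In Nat10-ZcKO GV replicate 3 alone Nasp was at place 3. H3f3a, H2afz and Npm3 had too few counts to test, with the parts of depth and of shared sequence not told apart. In WT MII replicate 2 a count of 0 allows a level of up to 623 CPM.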
